A study of Mus musculus with 12 samples.

Results

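The S100, annexin and galectin effector genes followed here are 10 in number: the S100 genes *S100a4*, *S100a6*, *S100a10* and *S100a11*, the annexins *Anxa1*, *Anxa2* and *Anxa6*, the galectins *Lgals1* and *Lgals3*, and the intermediate filament gene *Vim*. They were taken by gene symbol from a table of read counts for 55421 genes, and all 10 were found. All 10 also passed the filter on low counts that left 14460 genes for testing.

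The libraries were made from OT-I cells, CD8 T cells with a transgenic receptor for a peptide of ovalbumin, that were either wild type (WT) or knockout (KO) for Rroid2. Cells of both genotypes were given to host mice, exposed there to LM-OVA (ovalbumin-expressing *Listeria monocytogenes*) and sorted from the spleen, so there is no uninfected or naive group. The 6 groups, of 2 libraries each, are WT and KO SLEC (short-lived effector cells) of day 7, WT and KO SLEC of day 14, and WT and KO MPEC (memory precursor effector cells) of day 14. The labels leave out the sort gates, the strain and age of the hosts and the nature of the Rroid2 deletion, and do not say whether a group's libraries came from separate mice. The p-values therefore measure the spread between libraries, which may be technical.

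S100 proteins are small calcium sensors that work by binding other proteins, among them annexins and myosins. Annexins bind membrane phospholipids when calcium rises and take part in membrane repair, vesicle traffic and the link between membrane and cortical actin, while galectins bind galactose-containing sugars on surface glycoproteins and vimentin forms the intermediate filaments of lymphocytes. Many of these genes are widely used as markers of activated and tissue-seeking T cells, since their RNA is low in naive CD8 T cells and high in effector cells.

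The 4 S100 genes lie in 2 pairs on chromosome 3 of GRCm38. *S100a4* (ENSMUSG00000001020.8, 90603771 to 90606045) is 6.84 kb from *S100a6* (ENSMUSG00000001025.8, 90612882 to 90624181), and *S100a11* (ENSMUSG00000027907.4, 93520488 to 93526287) is 28.79 kb from *S100a10* (ENSMUSG00000041959.14, 93555080 to 93564643), all on the plus strand. *Vim* is on chromosome 2, *Anxa2* on 9, *Anxa6* on 11, *Lgals3* on 14, *Lgals1* on 15 and *Anxa1* on 19. Genes and pseudogenes that overlap a member or bear its name held at most 39 counts each over all libraries.

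Promoters are shown because most of these genes moved together across the libraries. RefSeq promoter windows of GRCm38.p6 were at hand for 7 of the 10 genes; *S100a10*, *Anxa6* and *Lgals1* had no entry. Each line below runs 5′ to 3′ on the gene's own strand, from 60 bases before the RefSeq start site to 20 after it. Capitals mark the TATA box letters TATAAA in the first 4 and a match to the AP-1 motif TGANTCA in the last. The windows of *S100a6* and *Lgals3*, which held neither motif, are not printed. Both genes also moved with the mean of the other members (Pearson's r of 0.864 and 0.877). The windows are chr2:13574251-13574330 (plus), chr3:90603710-90603789 (plus), chr19:20390652-20390731 (minus), chr9:69453623-69453702 (plus) and chr3:93520436-93520515 (plus), in the order printed.
Vim: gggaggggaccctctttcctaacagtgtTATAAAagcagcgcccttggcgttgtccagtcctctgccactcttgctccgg
S100a4: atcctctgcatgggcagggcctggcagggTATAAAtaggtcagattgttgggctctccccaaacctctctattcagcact
Anxa1: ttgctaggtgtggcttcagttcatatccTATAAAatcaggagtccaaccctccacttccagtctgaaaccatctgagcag
Anxa2: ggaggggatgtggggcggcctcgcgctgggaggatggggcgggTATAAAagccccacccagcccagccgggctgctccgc
S100a11: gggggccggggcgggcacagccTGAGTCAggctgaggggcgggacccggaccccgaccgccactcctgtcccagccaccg

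TATAAA was found on the gene strand in 4 of the 7 windows of 300 bases and began 32 bases before the start site in *Vim* and *Anxa1*, 31 in *S100a4* and 17 in *Anxa2*. Over all 32851 RefSeq windows of that length, 8.32% held TATAAA on the gene strand and 13.62% on either strand. TGANTCA, which reads the same on both strands, was in 2 of the 7 windows, at 136 and 38 bases before the start site in *S100a11* and at 95 in *Anxa2*, against 7.81% of all windows. GGGCGG, the GC box bound by Sp proteins, was in 3 of the 7, *S100a11*, *Anxa2* and *Lgals3*, against 35.66% of all windows on either strand; it overlapped no match of the other motifs. These are matches of letters only.

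Total counts per library ran from 7603551 to 14026594, and the 10 genes held 0.2184% to 0.7242% of them. Rroid2 was not measured under that name, and its loss was not checked here. Among markers of cell state, *Klrg1* was at 132 to 321 CPM (counts scaled to the effective library size) in the 8 SLEC libraries. In the 4 MPEC libraries it was at 1.33 to 3.74 CPM. *Il7r* was at 14.1 to 71.7 CPM in SLEC and 760 to 1037 CPM in MPEC. The labels do not say whether the cells were sorted on either product, so this separation may follow from the sort. *Zeb2* and *Gzmb* were lower in every MPEC library than in any SLEC library, and *Tcf7* was higher. The T cell identity markers, *Cd8a* among them, summed to 4537 to 6419 CPM. The sum of the 10 markers of B cells was highest in WT SLEC of day 14, at 234.9 and 1081 CPM. WT MPEC replicate 1 had 105 CPM and the other 9 libraries 1.03 to 18.7 CPM. In the WT SLEC day 14 libraries the 12 monocyte and macrophage markers summed to 126 and 169 CPM (42.1 to 120 elsewhere) and the 10 neutrophil markers to 72.2 and 8.10 CPM (0 to 7.93 elsewhere). Myeloid cells are rich in *S100a4*, *S100a6*, *Anxa1*, *Anxa2*, *Lgals3* and *Vim*; the part of such cells in the values below was not tested.

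Per kilobase of exon, the most abundant of the 10 in WT SLEC on day 7 were *Lgals1* at 1101 RPKM (CPM per kilobase of exon) and *S100a10* at 962 RPKM. *Anxa6* at 368, *Vim* at 355, *S100a6* at 195, *S100a4* at 145 and *S100a11* at 132 RPKM followed. *Anxa2* at 84.5, *Lgals3* at 48.3 and *Anxa1* at 17.9 RPKM were the least abundant. In WT MPEC *S100a10* (335 RPKM) and *Anxa6* (333 RPKM) led, with *Lgals1* at 202 RPKM. The libraries of WT SLEC day 7 differed by 1.14-fold for *S100a4* and by up to 2.84-fold, for *Lgals3*. Whether neighbours in this order differ was not tested.

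**Figure D1:**
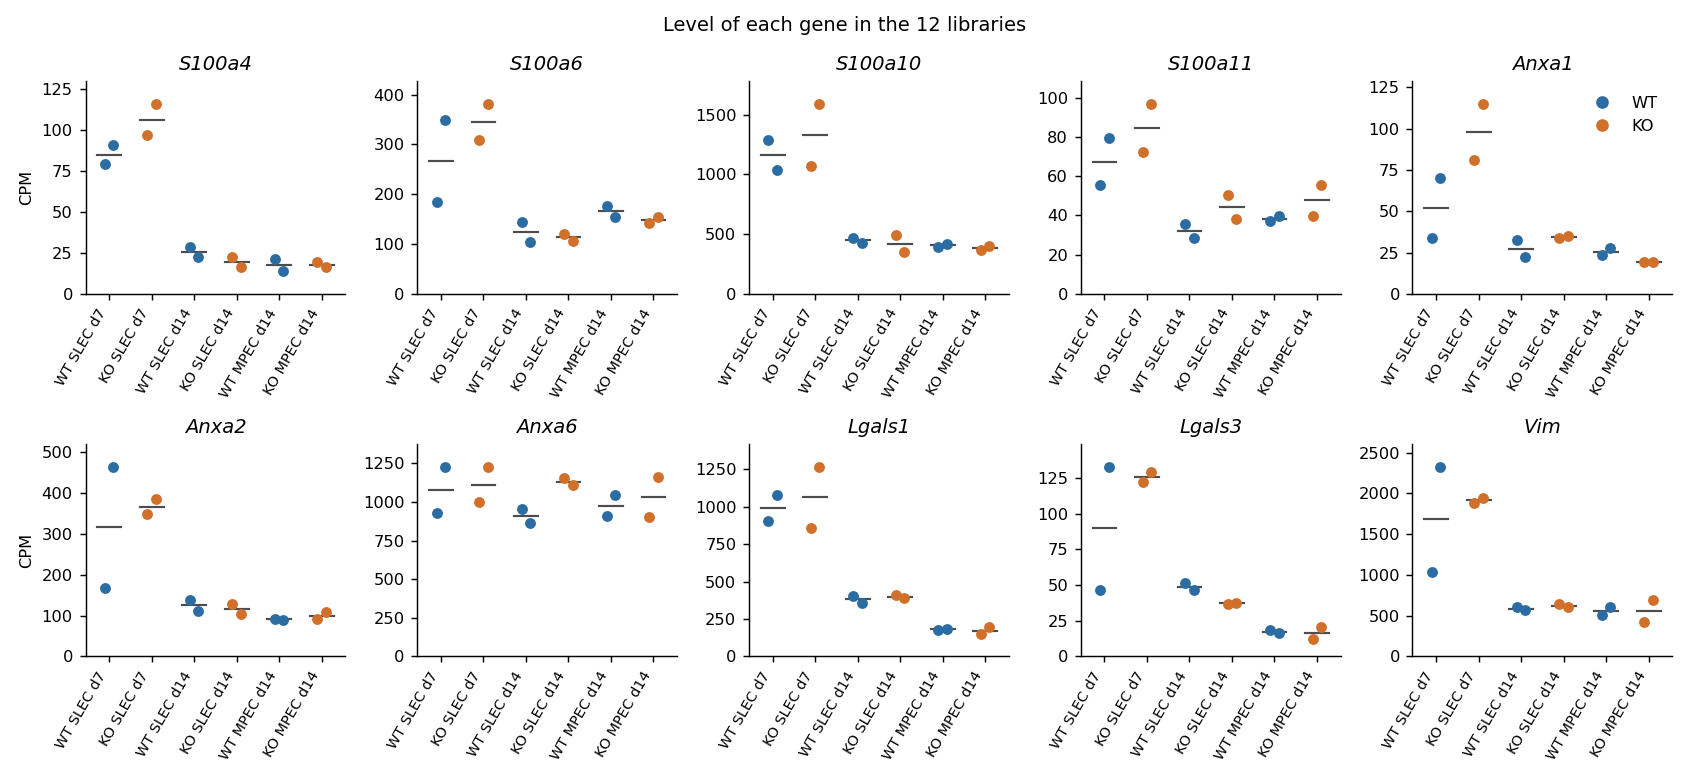
Scaled CPM (vertical axis, linear from 0) of each of the 10 genes in the 12 libraries; points are libraries, replicate 1 left and replicate 2 right, and bars are group means. Both day 7 groups stand above the day 14 groups for most genes, *Anxa6* is level, *Lgals1* and *Lgals3* are lowest in MPEC, and the WT SLEC day 7 points lie far apart for *Anxa2*, *Lgals3* and *Vim*.

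The first comparison asks how SLEC changed between day 7 and day 14. RNA of the 4 S100 genes, *Lgals1* and *Vim* was lower on day 14 in both genotypes, by 1.90-fold to 5.40-fold, and in KO cells so was that of *Anxa1*, *Anxa2* and *Lgals3*. In WT cells 6 of the 10 genes were called lower, against 5.25% of all tested genes called lower. In KO cells 9 of the 10 were called lower, against 9.5%. A gene was called at an adjusted p under 0.05 in edgeR's quasi-likelihood test with Benjamini-Hochberg adjustment over all 14460 genes. The median log2 change of the 10 was -1.22 in WT and -1.61 in KO, while that of all genes was 0.01 and -0.01. Both day 14 libraries lay below both day 7 libraries for 8 of the 10 in WT (24.3% of all genes did so) and for 9 of the 10 in KO (29%). In sorted bulk RNA, fewer cells of a high-expressing kind and less RNA per cell cannot be told apart.

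*S100a4*, which binds non-muscle myosin, fell furthest. It was at 79.3 and 90.6 CPM in WT on day 7 (replicates 1 and 2, in that order here and throughout), 28.7 and 22.5 in WT on day 14, 96.6 and 116 in KO on day 7, and 22.6 and 16.2 in KO on day 14. The 4 day 7 libraries were all above the 4 day 14 libraries. The log2 change was -1.74 ± 0.21 (SE) in WT, a 3.33-fold fall with an edgeR adjusted p of 7.6e-05, and -2.43 ± 0.23 in KO, a 5.40-fold fall with an edgeR adjusted p of 4.0e-06.

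*S100a10* encodes an S100 protein that has lost calcium binding and pairs with annexin A2 at the membrane. Its level was 1292 and 1040 CPM in WT and 1074 and 1591 CPM in KO on day 7. On day 14 it was 467 and 428 CPM in WT and 492 and 349 CPM in KO. The groups did not overlap, and the log2 change was -1.38 ± 0.19 in WT and -1.66 ± 0.19 in KO.

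*S100a6*, or calcyclin, stood at 184 and 348 CPM in WT and 310 and 382 in KO on day 7. By day 14 it stood at 143 and 104 in WT and 120 and 107 in KO. The lower WT day 7 library was close to the higher WT day 14 library. The log2 change was -1.11 ± 0.25 in WT (edgeR adjusted p = 0.0142) and -1.61 ± 0.26 in KO. *S100a11*, a partner of annexin A1, had 55.3 and 79.2 CPM in WT and 72.4 and 96.9 in KO on day 7. By day 14 it had 35.8 and 28.6 in WT and 50.3 and 38.1 in KO. Its change was -1.07 ± 0.22 in WT, within the SE of that of *S100a6*. In KO it was -0.92 ± 0.23, the smallest of the S100 genes there.

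Among the annexins, *Anxa2*, the partner of *S100a10*, went from 167 and 464 CPM on day 7 to 138 and 111 on day 14 in WT. In KO it went from 347 and 383 to 128 and 104 CPM. The 2 WT day 7 libraries were further apart than the lower of them was from day 14. The change of -1.34 ± 0.40 in WT did not pass (edgeR adjusted p = 0.0750), and that of -1.65 ± 0.41 in KO did (edgeR adjusted p = 0.0282).

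*Anxa1*, a phospholipid-binding protein that acts as a ligand of formyl peptide receptors when released, was at 34 and 70.3 CPM in WT on day 7, then 32.6 and 22.1. In KO it had 80.8 and 115 CPM, then 33.9 and 35.2. The KO groups were well separated, with a log2 change of -1.5 ± 0.30 (edgeR adjusted p = 0.00401), while the WT value of -0.94 ± 0.30 did not pass (edgeR adjusted p = 0.0610).

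*Anxa6*, an annexin with a doubled core that binds membranes and actin, was the one member that passed in neither genotype. Its day 7 levels were 926 and 1229 CPM in WT and 999 and 1224 in KO, and its day 14 levels 953 and 864 in WT and 1154 and 1107 in KO. The groups overlapped in both genotypes, and the log2 change was -0.25 (95% interval -0.60 to 0.11) in WT and 0.02 (-0.33 to 0.38) in KO.

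*Lgals1*, a dimeric galectin that can be secreted, was at 908 and 1081 CPM in WT and 860 and 1270 CPM in KO on day 7. On day 14 it was at 406 and 359 CPM in WT and 408 and 389 CPM in KO. The groups were separate in both genotypes, with a log2 change of -1.38 ± 0.18 in WT and -1.42 ± 0.18 in KO and a difference between these of -0.04 (95% interval -0.57 to 0.49). *Lgals3*, the galectin with a collagen-like tail that lets it form larger complexes, was at 46.7 and 133 CPM in WT and 122 and 129 CPM in KO on day 7. On day 14 it was at 51.7 and 46.2 CPM in WT and 36.6 and 37.7 CPM in KO. One WT day 7 library was level with day 14 and the other well above it. The WT value of -0.88 ± 0.39 did not pass (edgeR adjusted p = 0.214), whereas the KO value of -1.76 ± 0.42 did (edgeR adjusted p = 0.0198).

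*Vim* gave 1041 and 2330 CPM in WT and 1889 and 1948 in KO on day 7. On day 14 it gave 609 and 567 in WT and 646 and 601 in KO. Every day 7 library was above every day 14 library. The log2 change was -1.52 ± 0.34 in WT (edgeR adjusted p = 0.0225) and -1.62 ± 0.34 in KO (edgeR adjusted p = 0.0116).

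The calls rested on some libraries more than others. *S100a4*, *S100a10* and *Lgals1* stayed called in both genotypes when any 1 of the 12 libraries was left out. In WT, 3 of the 10 were called without SLEC day 14 replicate 2 (1.45% of all genes were then called lower), where *S100a6* (-0.90), *S100a11* (-0.91) and *Vim* (-1.47) no longer passed, and 5 without replicate 1 of that group (2.41%), where *Vim* (-1.57) did not. Without WT SLEC day 7 replicate 2 there were 4 (3.78% of all genes), *S100a6* (-0.57) and *S100a11* (-0.78) being lost; *Vim* was then at -0.82, *Anxa2* at -0.42 and *Lgals3* at 0.07, its direction turned. Without replicate 1 of that group there were 9 (6.65%), with *Anxa2* (-1.90), *Lgals3* (-1.45) and *Anxa1* added. In KO, *Anxa2* (-1.81 to -1.52), *Lgals3* (-1.81 to -1.72) and *Vim* (-1.67 to -1.57) did not pass when any 1 of the 4 KO SLEC libraries was left out. *S100a11* (-0.75 and -0.70) did not pass without replicate 2 of KO SLEC day 14 or day 7, so that 5 were called without either replicate 2 (3.29% and 5.72% of all genes called lower) and 6 without either replicate 1 (4.87% and 7.95%). With the B cell markers as a covariate 4 of the 10 were called in WT (2.85% of all genes): *S100a10* (-0.91), *S100a11* (-1.17) and *Vim* (-2.10) no longer passed and *Lgals3* (-1.94) did.

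Erythroid markers moved with the KO comparison of days. Their sum was 101 and 24.8 CPM in KO SLEC day 7 against 12.7 and 0 CPM on day 14. Of the 7 tested 4 were called lower, against 9.5% of all genes, and their median log2 change was -3.33. Of the platelet markers 1 of 4 tested, and of the stromal and endothelial markers 1 of 2 tested, were called lower as well. The part of such cells in the KO changes was not tested.

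Although 9 genes were called in KO and 6 in WT, the difference of the change itself, KO minus WT, was called for 0 of the 10, against 0.00692% of all genes. In edgeR 1 of the 10 had an unadjusted p under 0.05, *S100a4* at -0.70 (95% interval -1.36 to -0.04), as did 951 of all 14460 genes. DESeq2 called 0 of the 10, against 0.194% of all genes. The difference was -0.88 (-2.16 to 0.40) for *Lgals3* and -0.56 (-1.46 to 0.34) for *Anxa1*. Without WT SLEC day 7 replicate 2 the difference was -1.82 for *Lgals3* and -1.23 for *Anxa2*, and the number of members called moved. That fit leaves 1 library in the group. Over all alternatives the difference ran up to 0.20 for *Lgals3* and 0.47 for *Anxa2*.

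**Figure D2:**
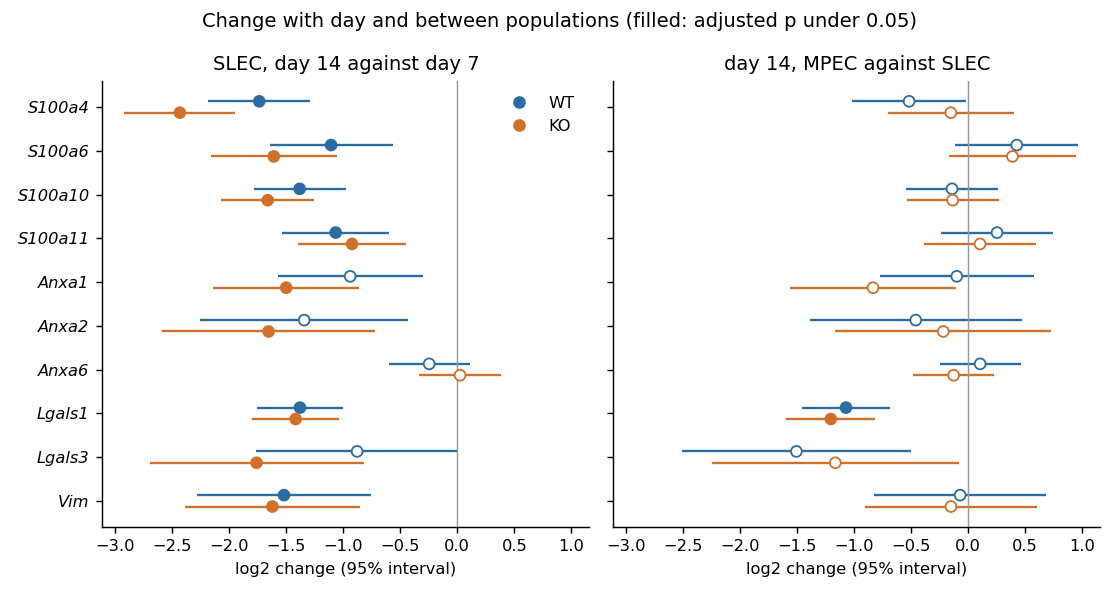
Log2 change of each gene with its 95% interval in SLEC from day 7 to day 14 (left) and from SLEC to MPEC on day 14 (right), WT and KO; filled points have an adjusted p under 0.05. Most points on the left lie between -0.88 and -2.43 with *Anxa6* near 0, and on the right only *Lgals1* is filled, in both genotypes.

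The second comparison sets MPEC beside SLEC on day 14. Of the 10, only *Lgals1* was called lower in MPEC, in WT (1 of 10, against 4.3% of all genes called lower) and in KO (1 of 10, against 2.21%). None was called higher, and the median log2 change of the 10 was -0.12 in WT and -0.15 in KO, with -0.0049 and -0.0030 for all genes. The SLEC day 14 libraries also serve the comparison of days, so these values are not independent of those above.

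*Lgals1* was at 178 and 186 CPM in WT and 149 and 197 CPM in KO MPEC, below every SLEC library of either day. The log2 change against SLEC on day 14 was -1.07 ± 0.18 in WT (edgeR adjusted p = 0.00132) and -1.20 ± 0.19 in KO (edgeR adjusted p = 0.000541), or 2.10-fold and 2.30-fold lower. The order over the groups was thus SLEC day 7, SLEC day 14, MPEC, with WT and KO overlapping at each step.

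*Lgals3* was at 18.2 and 16.1 CPM in WT and 12.2 and 20.7 CPM in KO MPEC, below all SLEC libraries. The log2 change was -1.51 ± 0.44 in WT (edgeR adjusted p = 0.0767) and -1.17 ± 0.48 in KO (edgeR adjusted p = 0.255). *Lgals3* was called in both genotypes by DESeq2 (adjusted p = 0.000317 and 0.0112), by edgeR fitted to only the groups compared, and by edgeR without either of the WT SLEC day 7 libraries, whose spread enters the estimate shared by all groups. The replicate block called it in WT alone (adjusted p = 0.0427). With the B cell markers as a covariate *Lgals3* changed by -0.82 in WT (edgeR adjusted p = 0.369) and -1.20 in KO, where it did not pass either. Over all alternatives its edgeR or DESeq2 adjusted p ran up to 0.369 in WT and 0.571 in KO, the latter without KO MPEC replicate 1 (-0.84).

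None of the 4 S100 genes passed between the populations. *S100a6* was at 177 and 155 CPM in WT and 142 and 154 CPM in KO MPEC, above both SLEC day 14 libraries of its genotype, with changes of 0.42 (95% interval -0.11 to 0.96) and 0.39 (-0.17 to 0.94) that did not pass. *S100a10* was at 395 and 416 CPM in WT and 365 and 401 CPM in KO MPEC. *S100a11* was at 37.2 and 39.5 CPM in WT and 39.8 and 55.6 CPM in KO. In WT *S100a10* lay just below and *S100a11* just above both SLEC day 14 libraries, while in KO the ranges overlapped. *S100a4* was at 21.5 and 13.7 CPM in WT and 19.1 and 16.3 CPM in KO, with a change of -0.52 (-1.02 to -0.02) in WT and -0.15 (-0.71 to 0.40) in KO.

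*Vim*, at 515 and 605 CPM in WT and 424 and 698 CPM in KO MPEC, overlapped SLEC, with changes of -0.07 (-0.82 to 0.68) and -0.15 (-0.91 to 0.60). *Anxa6* overlapped as well, at 908 and 1045 CPM in WT and 905 and 1163 CPM in KO. *Anxa2* was at 90.9 and 89.9 CPM in WT and 91.0 and 108 CPM in KO. Its WT libraries were below both of SLEC day 14 and its KO libraries overlapped them. *Anxa1* was at 23.5 and 27.5 CPM in WT, within the SLEC range, and at 19.2 and 19.5 CPM in KO, below it (-0.84 ± 0.34, edgeR adjusted p = 0.213); *Anxa1* was called there (-0.84 and -0.83) without WT SLEC day 7 replicate 1 or 2. Both MPEC libraries lay below both SLEC libraries for 5 of the 10 in WT (29.1% of all genes did so) and 3 of the 10 in KO (23.2%). The difference of the population contrast, KO minus WT, was called for 0 of the 10 (0% of all genes). In edgeR 0 of the 10 had an unadjusted p under 0.05, while 612 of all 14460 genes had one, and DESeq2 called 0.

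The third comparison asks what loss of Rroid2 did to these genes within each population. No member was called in any of the 3 populations: 0 of 10 in SLEC day 7 (0.0277% of all genes were called), 0 of 10 in SLEC day 14 (0.539%) and 0 of 10 in MPEC (0.0138%). The mean of the 3 effects also gave 0 of 10 (0.083%). DESeq2 called 0 in all 4 tests. At an unadjusted p under 0.05 in edgeR there was 1 gene in SLEC day 7 (*Anxa1*), 0 in SLEC day 14, 0 in MPEC and 1 in the mean (*S100a11*), while of all 14460 genes 488, 1803, 355 and 1195 had one in these tests.

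In SLEC on day 7 all 10 had a positive KO minus WT change, from 0.04 for *Anxa6* to 0.90 for *Anxa1*, with a median of 0.27 (0 over all genes). Both KO libraries were above both WT libraries for 2 of the 10, *Anxa1* and *S100a4* (23.4% of all genes did not overlap in one direction or the other). *Anxa1* was 1.87-fold higher in KO, a log2 change of 0.90 (95% interval 0.30 to 1.5) with an adjusted p of 1 in edgeR. The intervals of *Lgals1* (-0.27 to 0.47), *Anxa6* (-0.31 to 0.40) and *S100a10* (-0.20 to 0.59) were the narrowest, and that of *Anxa2* (-0.68 to 1.10) the widest. Without WT SLEC day 7 replicate 2, 4 of the 10 were called higher in KO, *Anxa1* (1.52), *Lgals3* (1.43), *Anxa2* (1.13) and *S100a6* (0.91), and 1.37% of all genes were then called. Without WT SLEC day 7 replicate 1, 0 of the 10 were called and 6 had a negative change: *Anxa2* (-0.35), *Vim* (-0.28), *Anxa6* (-0.15), *Lgals3* (-0.08), *Lgals1* (-0.02) and *S100a6* (-0.01). Erythroid markers were also higher in KO here, at 101 and 24.8 CPM in KO and 3.89 and 20.2 CPM in WT, with 5 of the 7 tested at an unadjusted p under 0.05 in edgeR and 0 called; their part was not tested.

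In SLEC on day 14 the changes ran from -0.40 for *Lgals3* to 0.47 for *S100a11*, and 4 of the 10 did not overlap (47.6% of all genes did not): *S100a11*, *Anxa6* and *Anxa1* were higher in KO and *Lgals3* lower. In MPEC they ran from -0.39 for *Anxa1* to 0.32 for *S100a11*, and 4 of the 10 did not overlap (30.1%): *S100a11* and *Anxa2* were higher in KO and *S100a6* and *Anxa1* lower. *S100a11* had a positive change in each population and a mean of 0.37 (95% interval 0.10 to 0.65), with an adjusted p of 0.480 in edgeR. The median of the 10 was -0.01 in SLEC day 14 and -0.03 in MPEC, with -0.02 and -0.01 for all genes. The mean changes of *S100a10*, *S100a6*, *Lgals1* and *Vim* were 0.01, 0.03, 0.03 and 0.09. The B cell, monocyte and neutrophil marker sums of WT SLEC day 14 given above enter the KO comparison of that population.

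**Figure D3:**
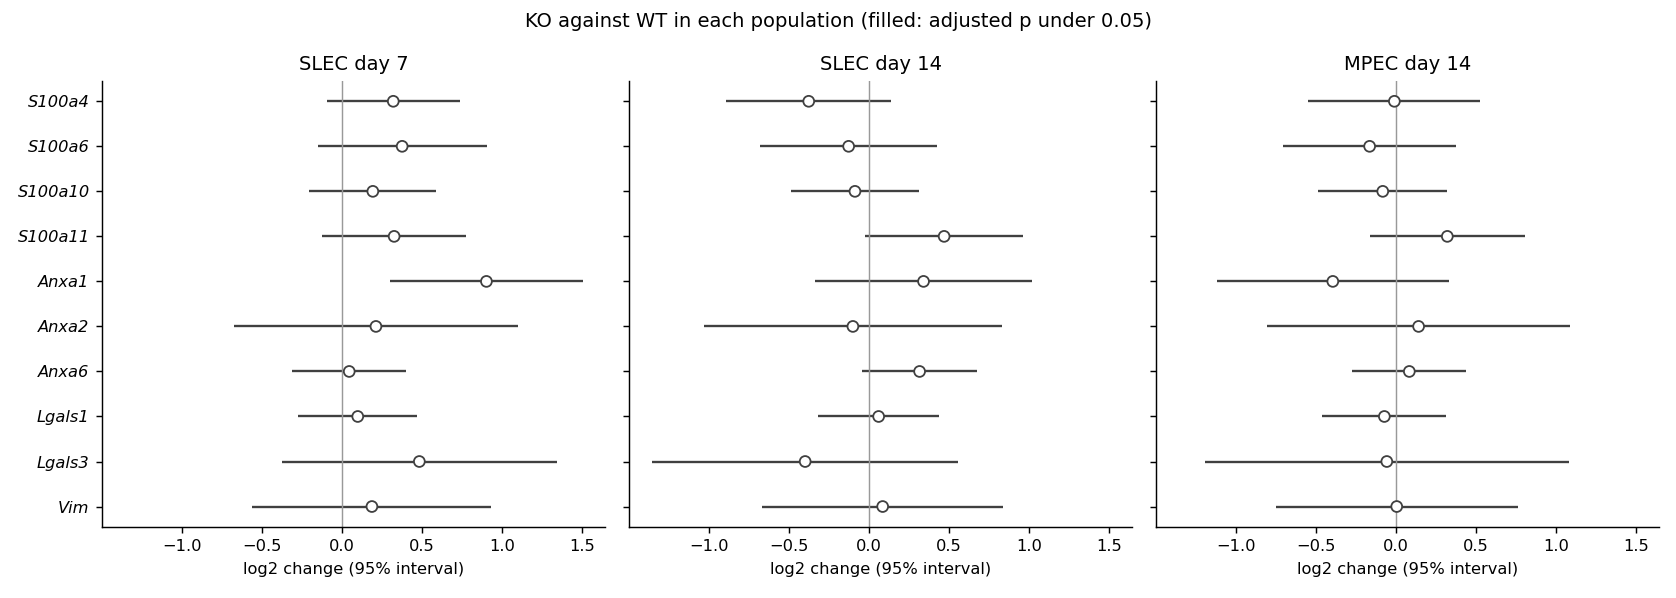
Log2 change, KO against WT, of each gene with its 95% interval in the 3 populations; filled points would have an adjusted p under 0.05 and none is filled. All 10 points lie above 0 in SLEC day 7, with *Anxa1* furthest at 0.90 (6 of the 10 fall below 0 without WT SLEC day 7 replicate 1), and on both sides of 0 on day 14.

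The 2 WT SLEC day 7 libraries differed in these genes more, by the median, than the pair of any other group. The median absolute log2 difference between them was 0.718 over the 10 genes and 0.266 over 8206 expressed genes; in the other 5 groups it was 0.134 to 0.306 over the 10 and 0.15 to 0.245 over the expressed genes. Replicate 2 was higher by 2.84-fold for *Lgals3*, 2.78-fold for *Anxa2*, 2.24-fold for *Vim*, 2.06-fold for *Anxa1* and 1.89-fold for *S100a6*. *S100a10* went the other way, 1.24-fold lower. *S100a10* thus had 7.745 counts for each *Anxa2* count in replicate 1 and 2.243 in replicate 2, while the other 10 libraries held 3.095 to 4.631. The proliferation gene *Mki67* was at 513 CPM in replicate 1 and 1490 CPM in replicate 2, with 1246 and 956 CPM in KO SLEC day 7 and 23.3 to 68.2 CPM on day 14. *Lmnb1*, the lamin gene, was at 227 and 669 CPM in the same pair, and *Anxa5*, an annexin outside the 10, at 15.1 and 51.3 CPM. The part of proliferation in the differences between these libraries was not tested.

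**Figure D4:**
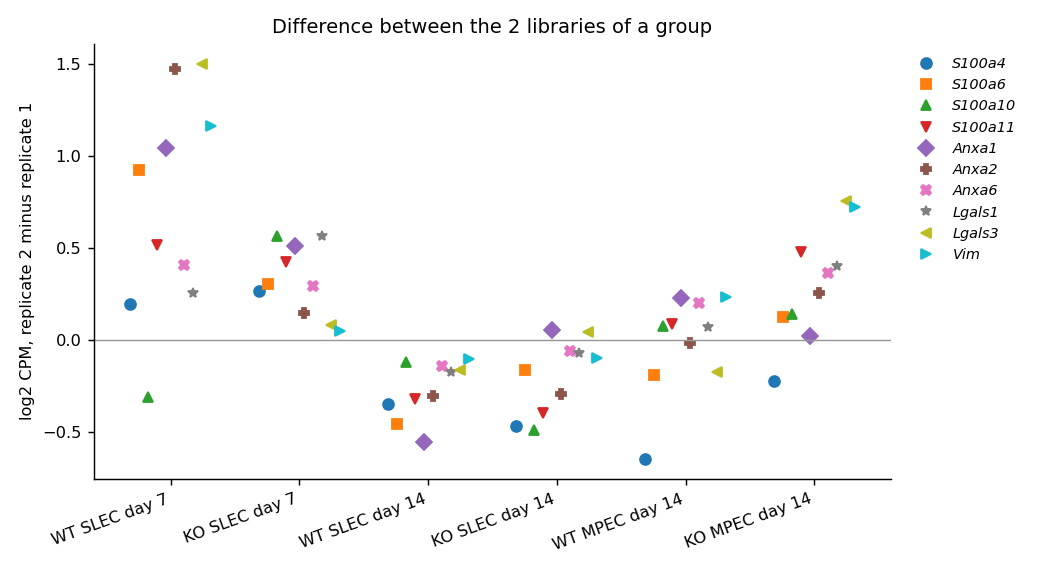
Log2 CPM of replicate 2 minus replicate 1 for each of the 10 genes in the 6 groups; the line is no difference. WT SLEC day 7 has the widest spread, from -0.312 for *S100a10* to 1.5 for *Lgals3*.

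Relatives of the 10 behaved unevenly. Of 13 genes on the list of other S100 genes, which includes the S100-binding protein gene *S100pbp*, 5 were tested. *S100a13* was at 159 and 138 CPM in WT and 137 and 188 in KO SLEC day 7, and dropped to 75.1 and 69.9 in WT and 81.2 and 54.3 in KO SLEC day 14; it fell by 1.04 ± 0.20 and 1.25 ± 0.20 on the log2 scale. In MPEC it was at 45.0 and 43.2 CPM in WT and 55.3 and 40.7 CPM in KO, and was called lower than SLEC in WT (-0.71 ± 0.21). *S100a1*, the only other one called, fell in KO SLEC from 45 and 27 counts on day 7 to 11 and 2 on day 14. The calprotectin genes *S100a8* and *S100a9*, which are also on the neutrophil list, were at 9.86 and 25.1 CPM in WT SLEC day 14 replicate 1 and at 0 to 2.64 CPM in the other 11 libraries.

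Of 9 other annexin genes 5 were tested. *Anxa4* followed both day and population, at 25.0 and 37.7 CPM in WT SLEC day 7, 10.2 and 17.4 CPM in WT SLEC day 14 and 4.76 and 5.18 CPM in WT MPEC. KO libraries gave 28.8 and 44.5, 13.5 and 12.4, and 4.52 and 4.70 CPM. Its log2 change was -1.17 ± 0.28 (WT) and -1.48 ± 0.31 (KO) with day and -1.49 ± 0.37 (WT) and -1.49 ± 0.42 (KO) with population, all 4 called. *Anxa7* fell in KO SLEC with day (-0.56 ± 0.17), and *Anxa9* went from 45 and 21 counts in KO SLEC day 7 to 0 in both day 14 libraries.

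Of 9 genes on the list of other galectins and their binding protein *Lgals3bp*, 8 were in the table and 5 were tested. *Lgals9* fell with day in WT (-0.59 ± 0.16), from 89.3 and 115 CPM to 66.1 and 69.9 CPM. In WT MPEC *Lgals4* was lower than in SLEC (-1.43 ± 0.37) and *Lgals3bp*, a secreted glycoprotein, was higher (0.61 ± 0.17). Among the glycoproteins that galectin-1 binds, *Spn* (CD43) was at 2651 and 2401 CPM in WT SLEC day 14 and 1227 and 1437 CPM in WT MPEC, a log2 change of -0.92 ± 0.17, and -1.07 ± 0.17 in KO. *Cd7* rose, from 24.7 and 23.3 CPM in WT SLEC day 14 to 98.1 and 119 CPM in WT MPEC (2.18 ± 0.32; 1.88 ± 0.33 in KO). *Mgat5*, which builds the branched sugars that galectin-3 binds, rose with day in KO SLEC (0.83 ± 0.21).

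Of the 17 partners and receptors 12 were tested, and 0 were called with day in WT (9.94% of all genes were called), 3 in KO (17.2%), 3 with population in WT (7.96%) and 4 in KO (5.11%). *Capn2*, a calpain that cuts cytoskeletal proteins, was lower in MPEC (-1.03 ± 0.15 in WT and -1.11 ± 0.16 in KO). *Ahnak*, the large scaffold bound by *S100a10* and *Anxa2*, rose with day in KO SLEC (0.87 ± 0.25) and was lower in KO MPEC than in KO SLEC (-1.09 ± 0.25). *Plgrkt*, a plasminogen receptor, fell with day in KO (-1.24 ± 0.28). The formyl peptide receptor genes that respond to released annexin A1 were near 0: *Fpr1* had at most 7 counts in a library, *Fpr2* at most 3 and *Fpr3* 0.

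Of 10 intermediate filament and lamina genes 4 were tested. *Lmnb1* fell with day in both genotypes (-1.80 ± 0.42 and -1.81 ± 0.42), and *Plec*, which ties vimentin to actin, rose in KO (0.58 ± 0.19). All 22 genes of the cytoskeleton and migration list were tested, and 10 were called lower with day in WT (5.25% of all genes) and 9 in KO (9.5%). None was called higher with day, and the median of the list was -0.48 and -0.54. *Crip1* fell most, from 181 and 261 CPM to 87.4 and 73.2 CPM in WT (-1.46 ± 0.18) and from 272 and 312 CPM to 72.4 and 65.3 CPM in KO (-2.08 ± 0.18). *Tmsb4x*, the thymosin that holds actin monomers, fell by 1.21 ± 0.16 in WT and 1.54 ± 0.16 in KO on the log2 scale, *Lsp1* by 1.15 and 0.98, and *Coro1a* by 0.89 and 0.91. In MPEC no gene of that list was called lower than in SLEC; *Cotl1* (0.92 ± 0.17), *Cd44* (0.81 ± 0.18) and *Lsp1* (0.54 ± 0.16) were higher in WT, and *Cotl1* (0.86 ± 0.17) and *Crip1* (0.73 ± 0.18) in KO. In the KO effects no gene of these relative, partner or cytoskeleton lists was called.

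Across the 12 libraries each member was compared with the mean of the other members, as standardised log2 CPM. Pearson's r was 0.978 for *Vim* and 0.974 for *Anxa2*, 0.864 to 0.934 for the next 7, and 0.485 for *Anxa6*. Genes outside the 10 that were among the most like their mean, of 7887 expressed genes, were *Rac1* (0.98), *Dlgap5* (0.977), *Capzb* (0.976), *Cfl1* (0.974), *Csrp1* (0.973) and *Rad21* (0.972). Each of these was higher in the 4 day 7 libraries than in any day 14 library, so r over the 12 libraries includes the difference between days. The margin was small for *Rac1* (183 CPM in WT SLEC day 7 replicate 1, 174 in KO SLEC day 14 replicate 1). It was small for *Rad21* as well (381 and 374 CPM in the same libraries). Within the 8 day 14 libraries these genes had r from 0.638 (*Cfl1*) to 0.925 (*Rac1*). *Dlgap5* is a spindle gene, and was at 35.0 and 88.0 CPM in WT SLEC day 7, in the same order as *Mki67*. In KO SLEC day 7 it was at 70.3 and 83.3 CPM, the reverse of the order of *Mki67* there.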

How the data were processed

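The authors deposited unnormalised counts of reads for each gene in 12 libraries of sorted OT-I cells. Per the labels' protocols, RNA was isolated with RNeasy Micro columns and made into SMART-Seq Stranded libraries. Per the submitters' processing notes, the authors used bcl2fastq, STAR 2.6.1a and GRCm38. The read counter, its annotation and its strand option were not given in the sources used here. Of 55421 identifiers, 98.7% were found in GENCODE M21, which gave positions and exon lengths, and 27 symbols stored as date numbers were restored by identifier.

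The tests used edgeR 4.0.16 (R 4.3.3): filterByExpr (14460 genes, at least 99.7% of each library's counts), trimmed mean of M-values scaling, and a robust quasi-likelihood fit with 1 coefficient per group over all 12 libraries (6 residual degrees of freedom; median prior 11.9). The 10 comparisons were two-sided, with Benjamini-Hochberg adjustment over all genes; SE is the log2 change over the root of F. The fit was tested on simulated data. Alternatives were DESeq2 1.42.0, its size factors, no filter, only the groups compared, a replicate block, a B cell covariate and leaving out each library.

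The members and lists were chosen with earlier results of these data known. Named were all members and, from each list of relatives, up to 4 called genes of smallest p per comparison. Markers of cell state and the 8 genes most like the members (mean log2 CPM at or above 3, prior count 2) were also named. *Mki67*, *Anxa5*, *S100a8*, *S100a9*, *Cd8a* and the *Fpr* genes were named after their values were seen. A few genes the rule names are left out of the text. Total counts bound the precision, and no molecular identifiers mark single molecules.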

Additional observations from a re-analysis of the deposited data

Results flagged for a closer look

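*Anxa1* was singled out because its KO and WT libraries did not overlap in any population and the sign was not the same in all. Of all genes, 23.4% did not overlap in SLEC day 7, 47.6% in SLEC day 14 and 30.1% in MPEC. The share of genes that met both conditions was not computed. The KO minus WT log2 change was 0.90 (0.901187 before rounding) in SLEC day 7, 0.34 (0.340144) in SLEC day 14 and -0.39 (-0.394503) in MPEC. None of the 3 was called in edgeR. The difference between MPEC and SLEC on day 14 was tested and was -0.73 ± 0.46 (adjusted p of 1 in edgeR, 95% interval -1.72 to 0.25), and that between SLEC day 14 and day 7 was -0.56 ± 0.42. The difference between MPEC and SLEC day 7 was not tested.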

How the results depend on the processing

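Of the 17 calls of members, 0 were lost with DESeq2, its size factors or the replicate block. Without a filter 2 were lost, those of *Vim* with day in WT and KO SLEC. With only the groups compared 3 were lost, *Vim*, *S100a6* and *S100a11* with day in WT SLEC. The B cell covariate lost 3, and leaving out 1 library lost those given above. No called value changed direction in any alternative. Among values that were not called, the sign changed for 17 with the B cell covariate, for 1 each with DESeq2, without a filter and with the replicate block, and for 3 to 14 when 1 library was left out. In SLEC from day 7 to 14, members called in WT were 3 with only the groups compared and 3 to 9 when 1 library was left out, and in KO 5 to 9 when 1 was left out; the difference between genotypes gave 0 to 2. In MPEC against SLEC, members called in WT were 2 with DESeq2 (4.13% of all genes were called lower) and 2 without a filter (2.6%). With only the groups compared there were 3, and the number moved when 1 library was left out. In KO they were 2 with DESeq2 (3.75%), 3 without a filter (1.4%) and 3 with only the groups compared, and the number moved when 1 library was left out. The share over all genes was not computed for the fits to only the groups compared. In the KO effect of SLEC day 7, 1 was called without a filter (*Anxa1*, 0.91) and 0 to 4 when 1 library was left out. Over all genes, 0.07% were called without a filter in the KO effect of SLEC day 7. The replicate block gave 2 in WT MPEC against SLEC (4.3% of all genes were called lower) and changed no other call. Same-numbered libraries deviated with correlations of -0.133 to 0.117, so the numbers were not taken to pair them. The causes were not tested. A fit to only the groups compared was not run for the mean of the 3 KO effects, which uses all groups. Leaving out a library leaves its group with 1, which is assumed to vary like the others. With 2 libraries a group, the 95% intervals of *Anxa2* and *Lgals3* span more than a 3-fold range in every comparison but the mean of the 3 KO effects.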
